A study of Mus musculus with 2 samples.

Results

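Macrophages that carried complement *C1q* transcripts were examined in Drop-seq libraries of whole lung from newborn mice. The members were chosen by their UMI counts (unique molecular identifiers, 1 per captured mRNA molecule) of 10 genes and their mitochondrial share. A cell was a member when mitochondrial transcripts made up at most 10% of its UMIs, when it held at least 2 UMIs over the 5 myeloid genes *Tyrobp*, *Fcer1g*, *Laptm5*, *Ptprc* and *Spi1* and at least 3 UMIs over *C1qa*, *C1qb* and *C1qc*, and when the neutrophil genes *S100a8* and *S100a9* together stayed under 50 per 10000 UMIs. The rule found 80 cells among the 8003 cells within the mitochondrial limit, or 1.0% (95% Wilson interval 0.804 to 1.24%), of 9944 cells in all. Batch 1 gave 31 of 2388 cells (1.3%, 0.916 to 1.84%) and Batch 2 gave 49 of 5615 (0.873%, 0.661 to 1.15%), and these intervals cover counting error over cells only.

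Each batch was the dissociated left and right lobes of 1 female wild-type C57BL/6J mouse at postnatal day 1, with no treatment or sort, so the design holds 1 group of 2 animals and no contrast between conditions. Drop-seq captures polyadenylated RNA of single cells on barcoded beads in droplets. The members were therefore set against other cells of the same lungs: all 7923 other cells, 310 myeloid cells with no *C1q* UMI and no lymphocyte, basophil or mast cell transcript (57 and 253), and 155 neutrophil-like cells past the *S100a8* and *S100a9* limit (34 and 121). No cell barcode was shared between the batches.

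C1q is the recognition part of the classical complement pathway, a bundle of A, B and C chains that binds antibody, dying cells and other surfaces and engages the proteases C1r and C1s. Unlike most complement proteins, which come from the liver, C1q is made largely by macrophages and related myeloid cells. The lung holds interstitial macrophages in the tissue and alveolar macrophages in the air spaces, and the alveolar kind matures around birth from fetal monocytes.

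The 3 *C1q* genes lie side by side on the minus strand of mouse chromosome 4 in the GRCm38 build, *C1qb* at chr4:136880129-136886187, *C1qc* at chr4:136889804-136893065 and *C1qa* at chr4:136895917-136898803. Since the 3 chains were found together in most members, the bases just upstream of the gene starts are shown for *C1qb* and *C1qc* as RefSeq gives them for GRCm38.p6, 5′ to 3′ on the coding strand, with matches on either strand to the PU.1 core GAGGAA and the MAF core TGCTGA in capitals. PU.1 is the product of *Spi1*, and *Maf* is described with the other transcription factors. No sequence is shown for *C1qa*.
C1qb, chr4:136886201-136886450: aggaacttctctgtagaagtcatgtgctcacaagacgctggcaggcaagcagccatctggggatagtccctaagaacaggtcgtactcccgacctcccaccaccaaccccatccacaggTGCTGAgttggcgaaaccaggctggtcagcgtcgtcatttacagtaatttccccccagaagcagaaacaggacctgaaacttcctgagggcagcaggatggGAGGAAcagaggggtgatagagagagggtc
C1qc, chr4:136893066-136893164: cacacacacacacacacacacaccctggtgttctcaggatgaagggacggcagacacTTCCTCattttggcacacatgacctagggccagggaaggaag
The 250 bases of *C1qb* held 1 match to the PU.1 core, found in 23.1% of 27025 mouse promoter windows of that length, and 1 to the MAF core, found in 15.8%. The 99 bases of *C1qc* held 1 PU.1 match, which reads TTCCTC on the strand shown and was found in 9.85% of windows of that length and position. Neither held an IRF element, searched as a pair of GAAA boxes set 2 bases apart and present in 3.04% of the longer and 1.34% of the shorter windows. The letters do not overlap one another, and a match is a description of the letters only.

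Because the rule read the *C1q* and myeloid genes, their values are given as a description and were not tested. *C1qa* had at least 1 UMI in 30 of 31 members of Batch 1 and 43 of 49 of Batch 2, at a lowest, median and highest of 0, 34.2 and 96.0 UMIs per 10000 in Batch 1 and 0, 18.4 and 74.9 in Batch 2. *C1qb* was found in 26 and 49 members, at 0, 19.4 and 72.2 and at 6.33, 34.2 and 83.6 per 10000. *C1qc* was found in 28 and 46 members, at 0, 23.3 and 82.3 and at 0, 34.6 and 95.4 per 10000. The ranges of the 2 mice overlapped for each chain, and all 3 chains were seen in 23 of 31 and 40 of 49 members. Summed over the chains, a member held 3 to 41 UMIs in Batch 1 (median 12) and 3 to 42 in Batch 2 (median 18). *C1q* was 0.767% and 0.895% of all UMIs of the members, which together held 408 of the 440 *C1q* UMIs of Batch 1 (92.7%) and 1003 of the 1102 of Batch 2 (91.0%). Of the other cells, 0.976% and 0.916% had any *C1q* UMI, which sets the background of free RNA and of cells that missed the limits, at median depths of 1387 and 2011 UMIs against 1311 and 2189 in the members.

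*Spi1*, the gene of the transcription factor PU.1 and a marker of the label, was found in 16 of 31 (51.6%) and 23 of 49 (46.9%) members, and in 2.97% and 4.4% of the other cells. Its summed level was 470 and 384 CPM (UMIs of the gene per 1000000 UMIs of the group) in the members and 482 and 317 CPM in the *C1q*-negative myeloid cells, so the batch values of those groups lay close together. Of the other myeloid genes of the rule, *Tyrobp* was found in 30 and 38 members, *Fcer1g* in 28 and 49, *Laptm5* in 20 and 42 and *Ptprc* in 9 and 16. *S100a8* and *S100a9* together reached at most 7.63 and 10.0 per 10000 UMIs in any member.

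**Figure D1:**
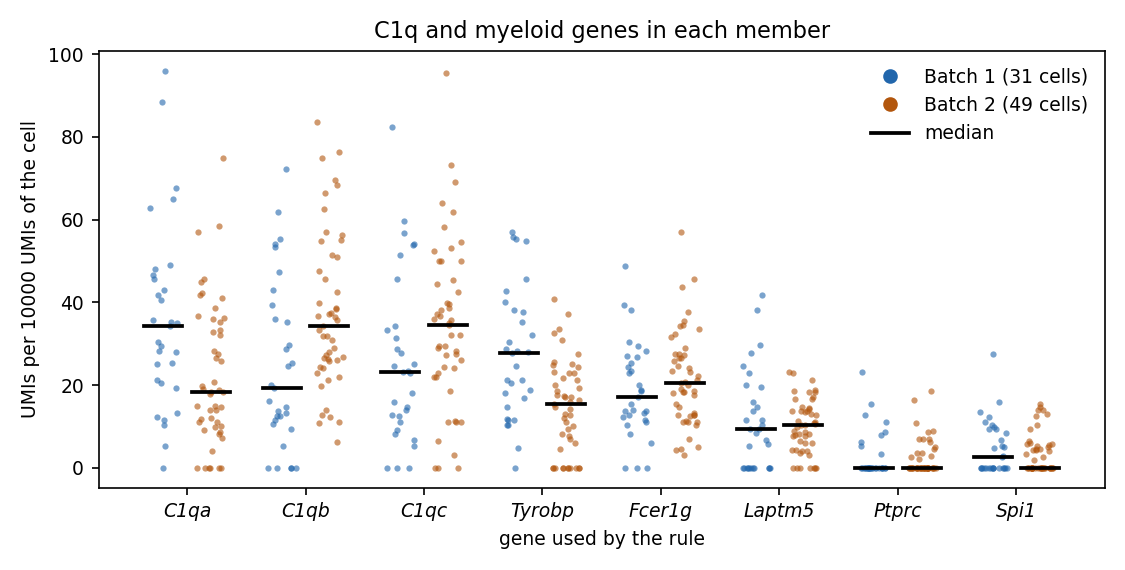
UMIs per 10000 of each gene of the rule in each member, by batch, with a bar at the median. The *C1q* chains overlap between the 31 cells of Batch 1 and the 49 of Batch 2, with *C1qb* found in 26 and 49 of them.

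Few cells lay near the *C1q* and myeloid limits. Members with 3 to 5 *C1q* UMIs numbered 5 and 3, and their *Apoe* levels were 9057 and 7689 CPM. Just outside, 5 and 11 cells met the other limits with 1 or 2 *C1q* UMIs, with *Apoe* at 5570 and 1633 CPM, no *Pf4* UMI and *Mrc1* at 0 and 50.7 CPM. One cell in each batch fell below the myeloid limit only, 0 and 3 cells lay above the neutrophil limit only, and 0 and 25 above the mitochondrial limit only.

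No doublet caller was run. A cell was called mixed when it held at least 3 UMIs and at least 10 per 10000 over the epithelial, endothelial or mesenchymal list, which was met by 2 of 80 members, 30 of 310 *C1q*-negative myeloid cells and 20 of 155 neutrophil-like cells. A lymphocyte, basophil or mast cell transcript was seen in 3 members. Transcripts of other cells were also seen in the members. *Sftpc*, the surfactant protein gene of alveolar type 2 cells, had a UMI in 32.3% and 75.5% of members, against 54.6% and 84.2% of all other cells. Its level of 282 and 633 CPM was below their 17396 and 20552 CPM. Of the 5 erythroid genes, mostly hemoglobin genes, 4 were called lower than in all other cells in the comparison below, and *Alas2* was not called. The 5 genes still summed to 258 and 50.9 per 10000 UMIs in the members, with a UMI in all 31 and all 49. All other cells held 699 and 151 per 10000, with medians over cells of 305 and 48.1 against 278 and 46.1 in the members. One *C1q*-negative cell of Batch 2 held 81568 of that group's 729005 UMIs.

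Set against all other lung cells, the members were higher in the genes listed for macrophages. Counts were summed over the cells of a group in each batch, and the 4 sums were compared with the batch as a block. Of 11639 genes tested by edgeR (quasi-likelihood test, Benjamini-Hochberg adjustment, limit 0.05), 443 were higher in the members (3.81%) and 804 lower (6.91%), a total of 1247 (10.7%), with an all-gene median log2 fold change of −0.58. DESeq2 with its own size factors split the calls more evenly, at 301 higher and 283 lower. All 18 listed macrophage identity genes were tested and all 18 were higher (median 4.94). *Csf1r*, the receptor for the macrophage growth factor CSF1, stood at 545 and 321 CPM in the members and at 11 and 5.79 CPM in the others (log2 fold change 5.40 ± 0.49, standard error, edgeR adjusted p = 6.9e-26). *Ctss*, a lysosomal protease of antigen-presenting cells, stood at 3460 and 4925 against 69.6 and 117 CPM (5.19 ± 0.26, edgeR adjusted p = 5.94e-81). The rule asked for myeloid genes, of which 8.02% and 12.3% of the other cells held a UMI. Higher levels of myeloid genes were therefore favoured, and this contrast cannot tell macrophages from other myeloid cells. Against the *C1q*-negative myeloid cells 7 of 17 identity genes tested were higher and 10 were not called. The values come from 2 mice in a fit with 1 residual degree of freedom. The spread of a gene was largely estimated from all genes together, so the p-values say little on variation between mice. Against the *C1q*-negative myeloid cells, at 1843 and 2159 CPM, *Ctss* was not called (log2 fold change 1.02 ± 0.31, edgeR adjusted p = 0.0759).

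Genes of the epithelial, endothelial and mesenchymal lineages were low. Of the 6 epithelial markers 5 were lower and 0 higher, of the 6 endothelial markers 6 were lower, and of the 6 mesenchymal markers 5 were lower. *Cxcl15*, *S100g*, *Nfib* and *Igfbp7*, expressed in lung epithelium or stroma, had no UMI in any member and were at least 28.1-fold, 25.5-fold, 21.9-fold and 20.8-fold lower than in the other cells, taking 3 UMIs over both batches as the floor, which equals 18.2 CPM.

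Beyond *C1q*, the complement genes called higher in the members included receptors, an adhesion receptor chain and properdin. Of 27 other complement genes listed, 20 were tested against all other cells, of which 6 were higher, 4 lower and 10 not called (median log2 fold change 0.47, beside −0.58 over all genes). With genes at 0 UMIs set to their bound, or to 0 where no fold could be given, the medians were 0.47 and −0.18. *C3ar1*, the receptor for the C3a fragment, stood at 207 and 268 CPM in the members and at 3.88 and 1.43 CPM in the others (log2 fold change 6.46 ± 0.74, edgeR adjusted p = 3.5e-16). *C5ar1*, the main receptor for C5a, was found in 5 and 21 members at 132 and 286 CPM (4.21 ± 0.67, edgeR adjusted p = 1.79e-08), and *C5ar2*, the second C5a receptor, at 37.6 and 35.7 CPM (4.36 ± 1.16, edgeR adjusted p = 0.00272). *Cfp*, properdin, which stabilizes the alternative pathway convertase, stood at 282 and 116 CPM (3.31 ± 0.65, edgeR adjusted p = 1.28e-05). *Itgb2*, the beta chain of complement receptors 3 and 4, stood at 113 and 62.5 CPM (3.23 ± 0.95, edgeR adjusted p = 0.0089).

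The proteases *C1ra* and *C1s* had 0 UMIs in the 80 members, which allows up to 18.2 CPM, while the other cells held them at 34.3 and 11.3 CPM and at 19.0 and 4.64 CPM, and neither gene was called. *C3*, the central component, had 0 and 8.92 CPM in the members and 33.3 and 14.8 CPM in the others and was not called. The lower genes were *Serping1*, the C1 inhibitor, at 0 and 8.92 against 199 and 74.6 CPM, *Cd93*, a membrane lectin of endothelium, at 37.6 and 8.92 against 218 and 228 CPM, and the membrane regulators *Cd59a* and *Cd55*, at 0 UMIs in the members and at least 5.08-fold and 2.94-fold lower. Against the *C1q*-negative myeloid cells, of which the background is given next, *C3ar1* was the 1 higher complement gene of 8 tested, at 207 and 268 against 28.9 and 8.23 CPM (4.18 ± 0.80, edgeR adjusted p = 0.0069).

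The comparison with the *C1q*-negative myeloid cells asked what accompanied *C1q* within the myeloid compartment. It used 6 sums, those of the neutrophil-like cells included for a shared estimate of spread, with the batch as a block and 2 residual degrees of freedom. Of 2176 genes tested, 64 were higher and 64 lower (2.94% each, 5.88% in all), with a median log2 fold change of −0.07. Without the batch block 7 genes were higher and 1 lower, so the count rests on pairing the sums of a mouse. The 7 were *Apoe*, *Ccl12*, *Cd163*, *Fcrls*, *Lgmn*, *Ms4a7* and *Stab1*, and the lower gene was *S100a11*. With cells of other-lineage transcripts left out of all 3 groups, an alternative chosen after seeing the data, 43 were higher and 24 lower.

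Of 22 listed genes of tissue-resident interstitial macrophages 14 were tested, of which 12 were higher, 1 was lower and 1 was not called (median 4.02). The count filter also kept genes that were high in the sums of the members alone, as with *Stab1*, *Cd163* and *C3ar1*. The share of higher genes among those tested was thus partly set by the filter and is a description only. Of the 18 macrophage identity genes 17 were tested, of which 7 were higher and 10 not called (median 1.46), and of the 20 lipid handling genes 15 were tested, of which 3 were higher, 1 was lower and 11 were not called. The lists share genes such as *Mrc1* and *Stab1*, so their counts are not separate evidence. *Apoe*, a lipid-carrying apolipoprotein, was found in all 80 members, at a lowest, median and highest of 25.4, 232 and 567 UMIs per 10000 in Batch 1 and 28.1, 254 and 576 in Batch 2. Its summed level was 17433 and 23404 CPM in the members, 2914 and 1985 CPM in the *C1q*-negative myeloid cells and 696 and 523 CPM in all other cells (log2 fold change 3.02 ± 0.40 against the *C1q*-negative cells, edgeR adjusted p = 0.00053). The summed levels of the members lay above those of either group, and single cells were not compared between groups. *Lgmn*, the lysosomal protease legumain, stood at 2144 and 2070 against 164 and 102 CPM (4.07 ± 0.44, edgeR adjusted p = 9.78e-05). *Ms4a7*, a membrane protein of tissue macrophages, stood at 827 and 384 against 19.3 and 9.6 CPM (5.25 ± 0.52, edgeR adjusted p = 9.78e-05).

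Scavenger receptors of the interstitial list were among the higher genes. *Stab1*, which takes up modified lipoproteins and other ligands, stood at 414 and 366 against 19.3 and 2.74 CPM (log2 fold change 5.95 ± 0.73, edgeR adjusted p = 0.000312). *Cd163*, the receptor for hemoglobin bound to haptoglobin, stood at 226 and 669 against 9.65 and 0 CPM and was called higher (edgeR adjusted p = 9.78e-05), with no fold given since the *C1q*-negative cells held 1 UMI. *Mrc1*, the mannose receptor, stood at 865 and 1151 against 86.8 and 302 CPM (2.39 ± 0.41, edgeR adjusted p = 0.00287). *Fcrls*, an Fc receptor-like gene, stood at 339 and 241 CPM in the members and at 0 UMIs in the *C1q*-negative cells, and was at least 75.6-fold higher.

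*Trem2*, a lipid-sensing receptor that signals through the product of *Tyrobp*, stood at 263 and 232 against 28.9 and 15.1 CPM (3.61 ± 0.65, edgeR adjusted p = 0.00407). *F13a1*, the A subunit of coagulation factor XIII, stood at 677 and 1097 against 203 and 126 CPM (2.54 ± 0.44, edgeR adjusted p = 0.00295). In the interstitial list *Lyve1*, a hyaluronan receptor also carried by lymphatic endothelium, was the gene not called, at 226 and 250 against 135 and 68.6 CPM. The lower gene was *Cbr2*, a carbonyl reductase, at 37.6 and 62.5 against 415 and 1781 CPM. That level of *Cbr2* came from 3 and 30 of the *C1q*-negative cells (5.26% and 11.9%), and all other cells held 336 and 1165 CPM.

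*Pf4*, a chemokine named for platelets, stood at 7729 and 2935 CPM in the members and at 9.65 and 897 CPM in the *C1q*-negative cells (4.01 ± 1.03, edgeR adjusted p = 0.036). In Batch 2 the latter carried *Pf4* in 6 of 253 cells, in a group that also held the platelet genes *Itga2b*, *Gp9* and *Gp1bb* at 94.6, 71.3 and 87.8 CPM. The same 3 genes had 0 UMIs in every member, and *Ppbp*, the remaining platelet marker, was found in 2 and 1 members.

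**Figure D2:**
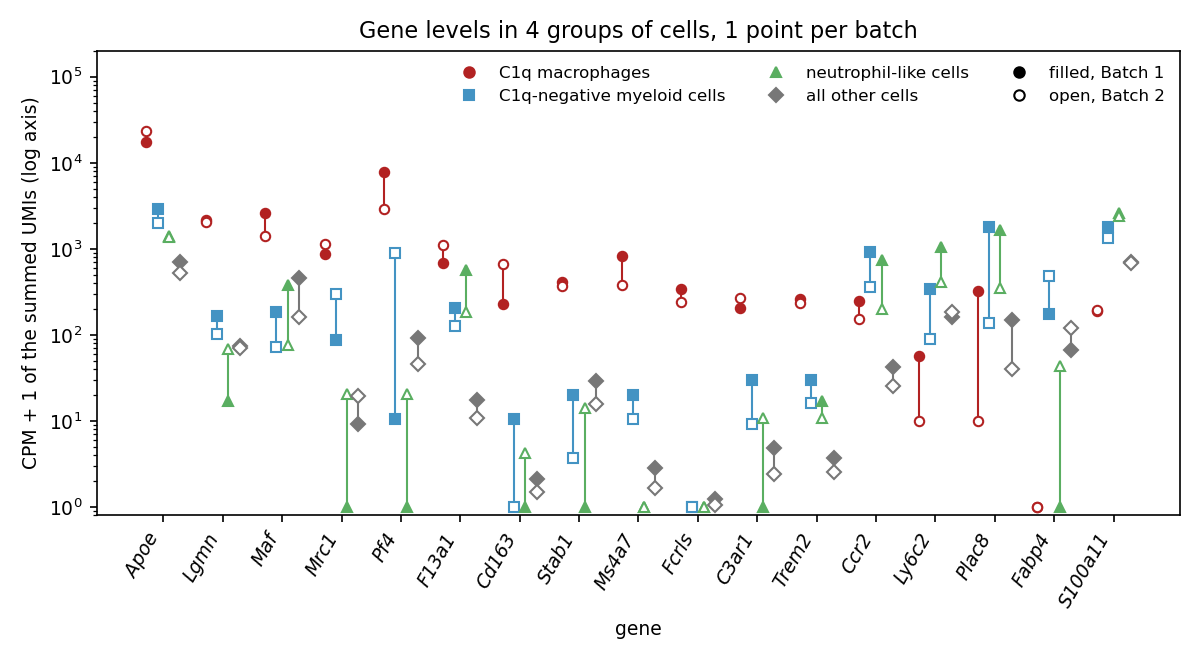
Summed level (CPM + 1, log axis) of 17 genes in the members, the *C1q*-negative myeloid cells, the neutrophil-like cells and all other cells, with filled points for Batch 1 and open points for Batch 2. *Apoe*, *Lgmn*, *Maf* and *Stab1* are higher in both batches of the members than in either batch of any other group, while *S100a11* and *Ly6c2* are lower in the members than in the *C1q*-negative myeloid cells.

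Of 30 transcription factor genes listed, 16 were tested against the *C1q*-negative cells, of which 2 were higher and 14 were not called. *Maf*, a factor of macrophage differentiation, was among the higher genes. *Maf* stood at 2614 and 1392 against 183 and 71.3 CPM (log2 fold change 4.04 ± 0.37, edgeR adjusted p = 2.22e-05). *Maf* was present in 32.9% and 22.3% of all other lung cells, so it was not a marker of the members alone.

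Genes of uptake and breakdown were higher in part. Of 28 engulfment genes 15 were tested, of which 5 were higher and 10 not called (median 1.39). *Fcgr2b*, the inhibitory Fc receptor for IgG, stood at 433 and 981 against 154 and 133 CPM (2.35 ± 0.39, edgeR adjusted p = 0.00223), and *Fcgr3*, an activating one, at 508 and 910 against 232 and 239 CPM (1.57 ± 0.37, edgeR adjusted p = 0.0237). *Mertk*, the receptor kinase that recognizes dying cells, was not called, at 207 and 321 against 57.9 and 125 CPM. Of 28 lysosome genes 24 were tested, of which 5 were higher and 19 not called (median 0.80). *Ctsb* and *Ctsl* encode lysosomal proteases: *Ctsb* stood at 2426 and 1517 against 579 and 300 CPM (2.18 ± 0.31, edgeR adjusted p = 0.000977), and *Ctsl* at 339 and 1642 against 203 and 346 CPM (1.68 ± 0.41, edgeR adjusted p = 0.0264). *Cd63*, a lysosomal membrane protein, stood at 658 and 1044 against 67.5 and 148 CPM (2.96 ± 0.38, edgeR adjusted p = 0.000443).

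Of 17 antigen presentation genes 9 were tested and 2 were higher: *B2m*, the light chain of MHC class I, at 4006 and 4729 against 1293 and 842 CPM (2.04 ± 0.34, edgeR adjusted p = 0.00247), and *H2-K1*, a class I heavy chain, at 715 and 705 against 347 and 221 CPM (1.36 ± 0.33, edgeR adjusted p = 0.0285). The class II gene *H2-Aa* was not called, at 132 and 35.7 against 444 and 67.2 CPM, nor was the class II invariant chain *Cd74*, at 282 and 170 against 1061 and 119 CPM. Among 15 iron and heme genes, 8 were tested and 2 were higher, with *Hmox1*, the heme-degrading oxygenase, at 169 and 410 against 28.9 and 42.5 CPM (3.01 ± 0.49, edgeR adjusted p = 0.00223).

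Of 30 cytokine and chemokine genes 12 were tested, of which 7 were higher and 5 not called (median 1.84). *Ccl12*, a ligand of CCR2, stood at 639 and 152 CPM in the members and at 0 and 2.74 CPM in the *C1q*-negative cells. *Ccl3* and *Ccl4*, chemokines that attract monocytes and lymphocytes, stood at 56.4 and 910 against 19.3 and 151 CPM (2.43 ± 0.43, edgeR adjusted p = 0.00352) and at 207 and 660 against 38.6 and 167 CPM (2.04 ± 0.40, edgeR adjusted p = 0.00868). *Cxcl16*, a membrane-bound chemokine, stood at 94.0 and 321 against 19.3 and 24.7 CPM (3.35 ± 0.72, edgeR adjusted p = 0.014). For *Ccl3* the Batch 1 level of the members lay below the Batch 2 level of the *C1q*-negative cells, and the difference is one within each mouse.

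The monocyte and alveolar macrophage genes that were called against the *C1q*-negative cells were lower in the members. Against all other lung cells some of them were higher, with 3 of 17 tested monocyte genes higher and 4 lower and 2 of 14 alveolar genes higher (*Marco* and *Plin2*) and 3 lower. Of 18 monocyte genes 14 were tested, of which 0 were higher, 6 lower and 8 not called (median −1.77). *Ly6c2*, a surface antigen of classical monocytes, stood at 56.4 and 8.92 against 338 and 87.8 CPM (log2 fold change −2.74 ± 0.64, edgeR adjusted p = 0.023), and *Ccr2*, the chemokine receptor that takes monocytes out of the marrow, at 244 and 152 against 907 and 359 CPM (−1.58 ± 0.38, edgeR adjusted p = 0.0256). Against all other cells, at 42.0 and 24.4 CPM, *Ccr2* was higher in the members (2.27 ± 0.54, edgeR adjusted p = 0.000573). *Plac8*, also abundant in monocytes, stood at 320 and 8.92 against 1795 and 136 CPM (−2.54 ± 0.58, edgeR adjusted p = 0.0199). *S100a11*, a calcium-binding protein chosen after its values were seen, stood at 188 and 196 against 1775 and 1325 CPM (−3.02 ± 0.39, edgeR adjusted p = 0.000443).

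Of 21 alveolar macrophage genes 10 were tested against the *C1q*-negative cells, of which 0 were higher, 4 lower and 6 not called (median −1.5). *Fabp4*, a fatty acid binding protein that capillary endothelium also expresses, had 0 UMIs in the members and 174 and 479 CPM in the *C1q*-negative cells, at least 24.3-fold lower. *1600029D21Rik* had 0 UMIs against 164 and 184 CPM, at least 9.99-fold lower, and *Cd9*, a tetraspanin shared with epithelium, stood at 37.6 and 98.1 against 482 and 811 CPM (−3.27 ± 0.44, edgeR adjusted p = 0.000603). *Siglec5*, *Cidec*, *Krt79* and *Itgax* also had 0 UMIs in the members, but at 0 to 9.65 CPM in the *C1q*-negative cells they lay below the floor of 18.2 CPM, so no difference was detectable at this depth.

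The *C1q*-negative group carried more epithelial RNA than the members: the 6 epithelial markers summed to 4.54 and 7.37 per 10000 UMIs there and to 0.376 and 0.535 in the members, and surfactant genes to 24.2 and 50.0 against 3.95 and 7.49. The 6 endothelial markers summed to 4.44 and 1.44 there and to 0.564 and 0.446 in the members. Of the 4 surfactant genes tested 3 were lower in the members, and *Id1*, *Wfdc2*, *Atp1b1* and *Sfta2* were among the 10 largest lower changes. The part of that RNA in the lower genes was not tested beyond leaving out cells of other lineages.

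**Figure D3:**
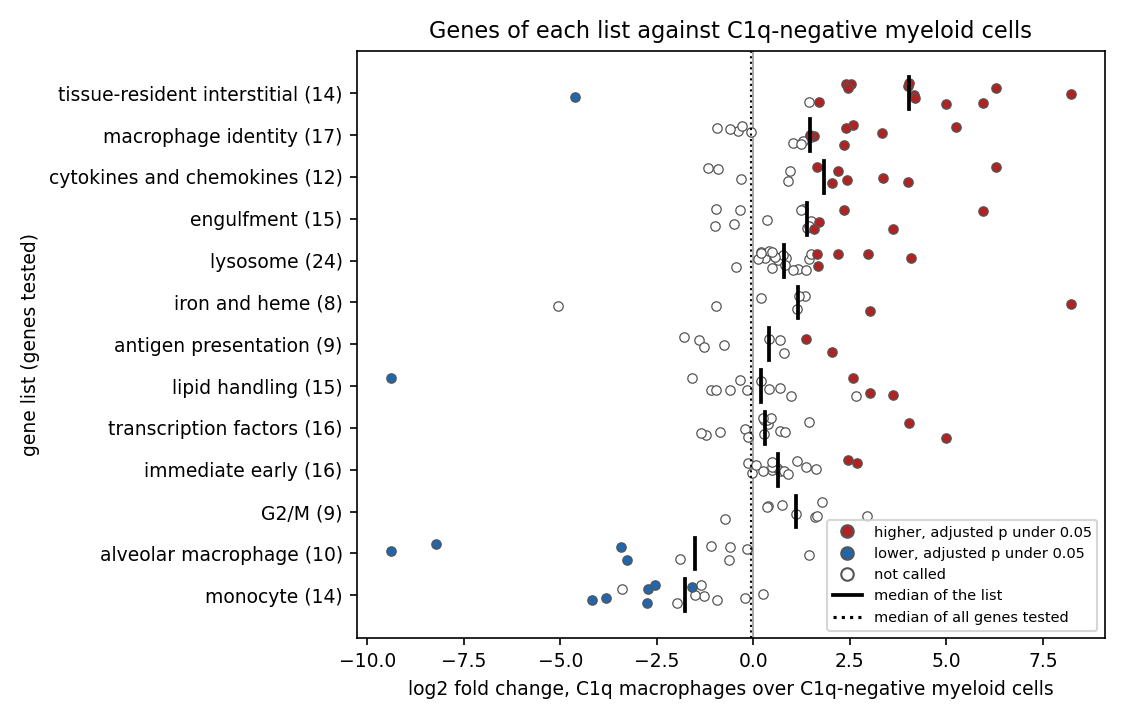
Log2 fold change of the members against the *C1q*-negative myeloid cells for each tested gene of each list, red where higher, blue where lower and white where not called, with a bar at the list median and a dotted line at the all-gene median of −0.07. The interstitial list has 12 red points of the 14 genes kept by the count filter, and the monocyte and alveolar lists have no red point.

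Against the neutrophil-like cells, in the same fit, 92 genes were higher (4.23%) and 131 lower (6.02%), or 10.2% of 2176, with a median of −0.01. The interstitial list had 11 higher of 14 tested, the lysosome list 12 of 24 and the engulfment list 8 of 15, with 0 lower in each. These shares are also among genes kept by the count filter, which favours genes high in the members. *Ms4a7* and *Fcrls* had no UMI in neutrophil-like cells and were at least 64.5-fold and 33.3-fold higher in the members. *Apoe* stood at 1418 and 1389 CPM in the neutrophil-like cells (log2 fold change 3.47 ± 0.41, edgeR adjusted p = 6.96e-05), and *Mertk* at 0 and 29.4 CPM (3.22 ± 0.62, edgeR adjusted p = 0.00409). All 7 neutrophil markers tested were lower, with *Retnlg*, *Ngp* and *Lcn2*, products of maturing neutrophils, at 0 UMIs in the members and at least 334-fold, 282-fold and 159-fold lower, a contrast that the *S100a8* and *S100a9* limit favours.

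The members were not uniform. *Pf4* was found in 20 of 31 and 32 of 49 of them, from 0 to 128 UMIs per cell in Batch 1 and 0 to 37 in Batch 2, and the genes set beside it were chosen after their values were seen. *F13a1* was found in 60% of members with *Pf4* and 18.2% of those without in Batch 1, and in 75.0% and 35.3% in Batch 2. *Mrc1* was found in 75.0% and 9.09% in Batch 1 and in 75.0% and 52.9% in Batch 2. *Cd163* was found in 30.0% and 53.1% of members with *Pf4* and in 0 of the 28 without.

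Other genes ran opposite to *Pf4*. *S100a6*, a calcium-binding protein, was found in 15.0% of members with *Pf4* and 63.6% without in Batch 1, and in 3.12% and 41.2% in Batch 2. *Lgals3*, the lectin galectin-3, was found in 10.0% and 54.5% and in 15.6% and 58.8%, and *Ccr2* in 5.00% and 27.3% and in 0 and 17.6%. Median depth with and without *Pf4* was 1205.5 and 1590 UMIs in Batch 1 and 2182 and 2314 in Batch 2. With each cell thinned to 600 UMIs the order held for *F13a1* (45.0% and 0, 46.9% and 17.6%), *Mrc1* (60% and 0, 59.4% and 29.4%), *S100a6* (15.0% and 36.4%, 0 and 17.6%) and *Lgals3* (10.0% and 54.5%, 6.25% and 23.5%). Across cells, Pearson's r with *Pf4* on log values was 0.68 (31 cells) and 0.50 (49 cells) for *F13a1*, 0.67 and 0.45 for *Mrc1*, −0.47 and −0.45 for *S100a6* and −0.41 and −0.41 for *Lgals3*, where the cells of a batch share 1 library and sparse counts. The *C1q* chains, which the rule read, were also lower in members without *Pf4*: *C1qa* stood at 3609 and 2512 CPM with *Pf4* and 2186 and 1335 without, *C1qb* at 3089 and 4201 and at 1293 and 2547, and *C1qc* at 2959 and 3839 and at 1472 and 2226. Of the members nearest the limit, with 3 to 5 *C1q* UMIs, 2 of 5 and 0 of 3 held *Pf4*. Members with *Pf4* held *Apoe* at 23151 and 25362 CPM and those without at 9590 and 19933 CPM.

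**Figure D4:**
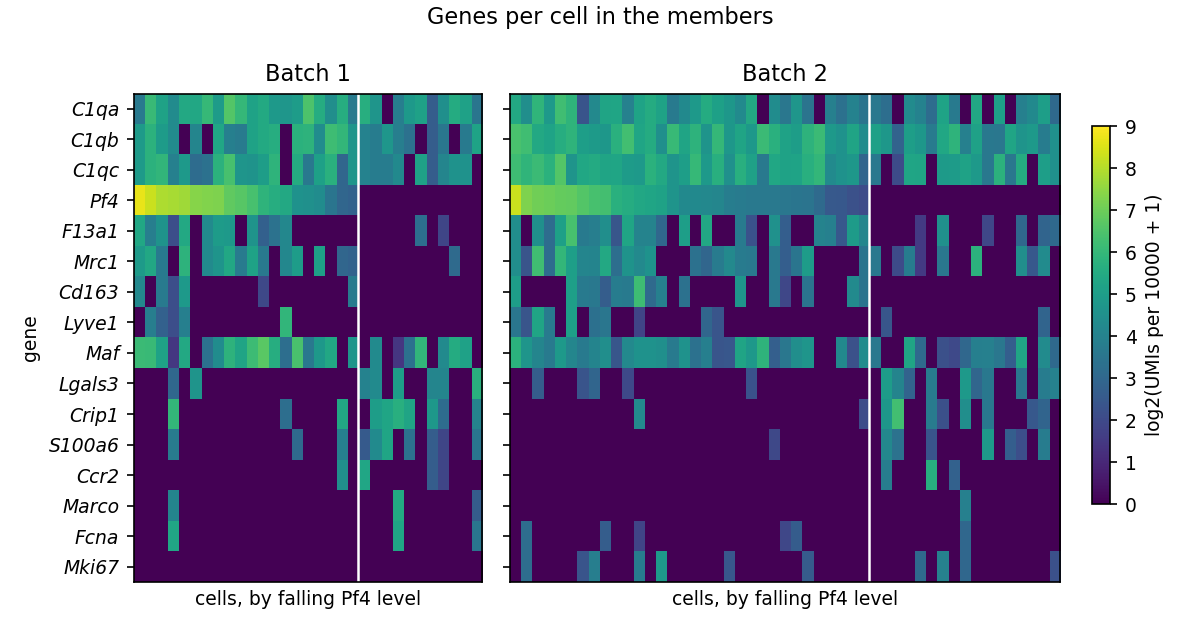
UMIs per 10000 of 16 genes (rows, log colour scale) in each member (columns), by batch and sorted by falling *Pf4*, with a white line after the last cell with a *Pf4* UMI. *F13a1* and *Mrc1* are found in a larger share of the columns left of the line (each 75.0% in Batch 2) and *S100a6* and *Lgals3* in a larger share of those right of it (41.2% and 58.8% in Batch 2).

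A few members carried another set of genes, also chosen after their values were seen. *Marco*, a scavenger receptor, was found in 3 members of Batch 1 and 1 of Batch 2, and all 4 also held *Fcna*, a ficolin of the lectin complement pathway, and *Cd5l*, a secreted scavenger protein. The 3 cells of Batch 1 held all 36 *Marco* and all 47 *Fcna* UMIs of the members of that batch, and *Cd5l* was found in no other member of either batch. None of the 4 held a *Mrc1* UMI, 3 held *Timd4*, a phosphatidylserine receptor, and 1 held 128 *Pf4* UMIs, the highest value of any member. *Fcna* and *Marco*, called higher against all other cells, thus rest on few cells.

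The 2 mice differed within the members in genes of acute response and division, which with 1 mouse each cannot be told apart from batch and was not tested. The 16 immediate early genes summed to 67.3 per 10000 UMIs in Batch 1 and 146 in Batch 2, with medians over cells of 67.9 and 142 and ranges of 16.9 to 175 and 0 to 421. The *C1q*-negative myeloid cells had 47.1 and 69.2 and all other cells 18.6 and 64.6, also higher in Batch 2. *Cd14*, the lipopolysaccharide co-receptor, was found in 7 of 31 members (22.6%, 12.9% thinned) and 32 of 49 (65.3%, 55.1% thinned), and *Ccl3* in 3 (9.68%, 9.68% thinned) and 27 (55.1%, 26.5% thinned). *Cx3cr1*, the fractalkine receptor, went the other way, in 21 of 31 (67.7%, 51.6% thinned) and 7 of 49 (14.3%, 2.04% thinned).

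The 16 G2/M genes summed to 6.21 and 34.4 per 10000 UMIs in the members, with medians over cells of 2.87 and 7.46 and highest values of 81.5 and 203, and 19 of the 49 members of Batch 2 held at least 3 UMIs of them. The same sum was 7.72 and 16.7 in the *C1q*-negative cells and 33.6 and 30.1 in the neutrophil-like cells, so the level of the Batch 2 members was close to that of the neutrophil-like cells. *Mki67*, a marker of dividing cells, was found in 0 of 31 and 11 of 49 members (22.4%, 10.2% thinned), against 2.08% and 4.28% of all other cells, and *Top2a*, a topoisomerase of dividing cells, in 0 and 6 members. Against all other cells 3 of 16 G2/M genes were higher (*Birc5*, *Ube2c* and *Cenpe*) and 13 were not called, 0 of the 14 S phase genes tested were called, and against the *C1q*-negative cells 0 of 9 G2/M genes were called.

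**Figure D5:**
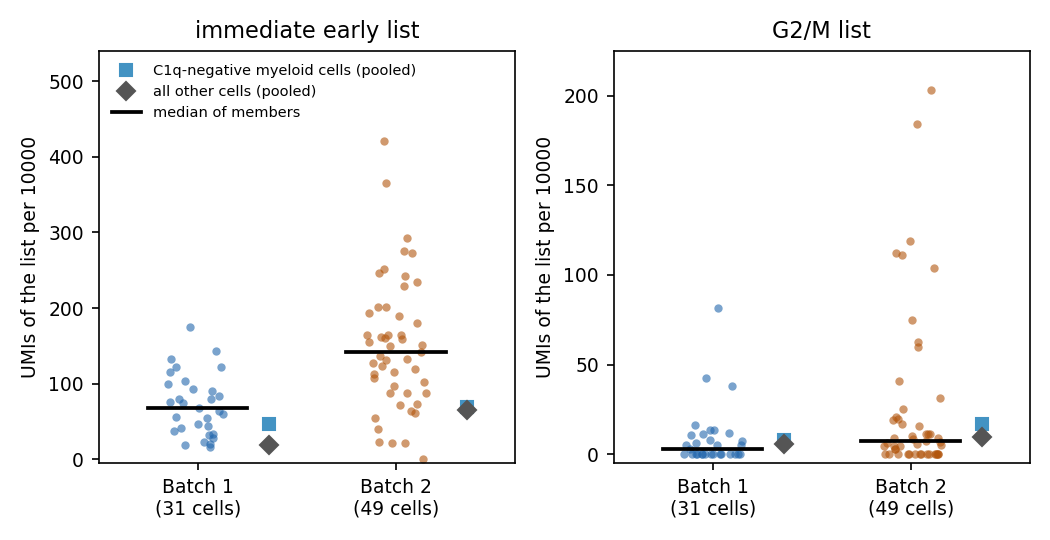
Summed UMIs per 10000 of the immediate early and the G2/M list in each member, by batch, with a bar at the median and the pooled values of the *C1q*-negative myeloid cells and of all other cells. The medians of the members are 67.9 and 142 for the immediate early genes and 2.87 and 7.46 for the G2/M genes.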

How the data were processed

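Whole-lung Drop-seq libraries of 2 mice were used, 1 per batch. Per the labels and the study's methods, the authors aligned reads to mm10 with Bowtie2 2.2.7, tagged them by exon, cell barcode and UMI, and deposited raw UMI counts per gene and cell, over cells with at least 500 genes. The mitochondrial limit of 10% was applied here. Members summed to 53175 and 112077 UMIs, at 719 to 6035 and 876 to 5372 UMIs per cell. All other cells summed to 4379378 and 18120562 UMIs.

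Counts were summed per batch and group and tested with edgeR 4.0.16 in R 4.3.3 (filterByExpr, TMM, quasi-likelihood fit, Benjamini-Hochberg adjusted p under 0.05), with the batch as a block, since both sums of a batch come from 1 mouse. The counts of calls depend on this block, and the counts without it are given below. P-values come from 2 mice, and the spread of a gene was largely estimated from all genes together. They therefore say little on how a single gene varies between mice. Standard errors were taken from the fold change and the F statistic. The 10 genes of the rule were described and not counted as calls. Cells sharing a threshold on *C1q* UMIs can also share depth, so shares were repeated with each cell thinned to 600 UMIs. Wilson intervals (95%) and floors (3 UMIs) cover counting error only. The scripts were tested on simulated counts with known changes. True log2 fold changes of 1.5 in either direction were found for 14.3% of genes against all other cells. Against *C1q*-negative and neutrophil-like cells the shares were 30.3% and 21.2%. For changes of 3.0 they were 54.6%, 94.6% and 86.5%, in the same order, so a gene not called may still differ. False calls were 4 of 71, 1 of 46 and 0 of 39. The simulated counts had a fixed spread and the same batch effect in every group. Differences between mice that vary by group were left out, so these shares may not carry over to the real counts.

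Named genes were those of the lists, the genes of the rule, and per comparison the 10 largest changes in each direction among called genes that reached 50 CPM in both batches of the higher group and moved the same way in both. The members and lists were chosen with earlier results of these data known. Listed symbols were matched as deposited, 6 through synonyms, and 2 had no row. Some listed genes are counted but not reported here by name. Gene coordinates are from GENCODE for GRCm38 and sequences from RefSeq for GRCm38.p6. Alternatives were no block, DESeq2 1.42.0, no gene filter, other limits of the rule, mixed cells left out, thinned counts, 2 groups only and each batch alone.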

Additional observations from a re-analysis of the deposited data

Results flagged for a closer look

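In Batch 2, 25 of the 1940 cells left out for more than 10% mitochondrial UMIs met every other limit of the rule, or 1.29% (95% Wilson interval 0.874 to 1.90%) against 0.873% of the cells within the limit, and they entered none of the comparisons of the report and only the alternative with no mitochondrial limit. Their mitochondrial share had a lowest, median and highest of 10.4, 14.7 and 38.5%. Scaled to 1000000 UMIs that were not mitochondrial, they held *C1qa*, *C1qb* and *C1qc* at 1865, 3360 and 3768, *Apoe* at 23831 and *Pf4* at 2408, found in 18 of 25 cells. *Mrc1* stood at 2117 against 1223 in the members of Batch 2, and *Malat1*, a nuclear RNA, at 22044 against 13195. *Mki67* was found in 2 of the 25. Batch 1 had 1 cell over the limit, which did not meet the other limits.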

How the results depend on the processing

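Against all other cells 1247 genes were called. The batch was a replicate block because both sums of a batch come from 1 mouse, and without it 710 were called (332 higher, 378 lower). DESeq2 called 584 (301 higher) and counts thinned to 600 UMIs per cell 550 (179 higher, 371 lower). Against the *C1q*-negative myeloid cells 128 were called, 8 without the block (7 higher, 1 lower), 51 with DESeq2, 47 thinned and 254 in a fit of these groups alone (150 higher, 104 lower). Alternatives chosen after seeing the data gave 67 with mixed cells left out of all 3 groups and 69 with at least 5 myeloid UMIs in the *C1q*-negative cells. Against the neutrophil-like cells 223 were called, 51 without the block, 119 with DESeq2 and 83 thinned. The 80 members became 49 with a mitochondrial limit of 5% and 105 with none. The other alternatives stayed within 1.5 times the total of calls. Without the gene filter, however, the calls against *C1q*-negative cells were 62 higher and 112 lower, in place of 64 and 64. Without either batch no residual degree of freedom is left, so counts of calls could not be refitted. A part of the named genes was followed through the alternatives: 41 against all other cells, 56 against *C1q*-negative cells and 17 against neutrophil-like cells. Of their values, 24 of 281, 107 of 528 and 9 of 140, in that order, lost the call. Among these genes 0 values reversed, single batches included. Genes named for the largest changes had been picked to move the same way in both batches. Their direction in a single batch was therefore fixed beforehand and is no check. *Cd74*, which lay outside this check, was lower than in the *C1q*-negative cells in Batch 1 and higher in Batch 2. *Apoe*, *Lgmn*, *Ms4a7*, *Stab1* and *S100a11* were called against *C1q*-negative cells under all 10 alternatives. With 80 cells, a gene at 0 UMIs could reach 18.2 CPM.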
